A study of Mus musculus with 6 samples.

Results

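The 7 mRNAs mt-Nd1, mt-Nd2, mt-Nd3, mt-Nd4, mt-Nd4l, mt-Nd5 and mt-Nd6 encode the complex I subunits that are made inside mitochondria. They were taken by symbol from a table of 22535 gene rows, and each of the 7 symbols matched a single row. The libraries were made from polyadenylated RNA of B16-BL6, a mouse melanoma cell line, cultured in DMEM with serum and pyruvate, and were sequenced as paired ends without strand. The sgNDUFS4 group (n = 3 libraries) carried a guide RNA against Ndufs4, and the sgControl group (n = 3 libraries) carried a control guide. The labels do not say whether a group is a single clone or a pool of cells, nor whether replicates are separate cultures, so that p-values reflect only how far these libraries scatter, which can be technical. The study looked for transcriptional changes behind the immunogenicity of the cells with the Ndufs4 guide.

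Complex I is the entry point for electrons from NADH into the respiratory chain. Its matrix arm oxidises NADH and is built from nuclear genes, among them Ndufs4, whereas its membrane arm pumps protons around a core of mitochondrially encoded subunits. Mitochondrial DNA is transcribed from each strand as a long precursor, which is cut mostly at the tRNAs that lie between the coding genes. Most coding genes are read from heavy-strand transcription and share that precursor, while mt-Nd6 is the only coding gene on the other strand. In human cells most mitochondrial mRNAs receive a short poly(A) tail and ND6 mRNA does not, so that selection for poly(A) can treat mt-Nd6 differently from the other members.

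The sequences of the members bear on how their reads could be counted. On the mitochondrial chromosome of GRCm38, in the annotation GENCODE M21, mt-Nd3 lies at bases 9459 to 9806, mt-Nd4l at 9877 to 10173 and mt-Nd4 at 10167 to 11544, all on the plus strand, each as a single coding exon. mt-Nd1 (2751 to 3707) and mt-Nd2 (3914 to 4951) lie before them on the same strand. These 3 neighbours are also found as unprocessed pseudogenes on the minus strand of chromosome 1, a stretch of mitochondrial sequence within nuclear DNA. The copy of mt-Nd3, Gm28438 (chromosome 1, 24612775 to 24613119), was identical to it over 342 of 348 bases, and the annotated copy differed from mt-Nd3 by the substitution T3C, counted from 1 at the 5′ end of mt-Nd3. The copy of mt-Nd4l, Gm10222 (chromosome 1, 24612407 to 24612700), was identical over 294 of 297 bases. The copy of mt-Nd4, Gm28439 (chromosome 1, 24611535 to 24612410), was identical over the first 876 of 1378 bases. To show how far these genes match their annotated copies, the first and last 90 bases of mt-Nd3 (chrM:9459-9548 and chrM:9717-9806), the whole of mt-Nd4l (chrM:9877-10173) and the point in mt-Nd4 where the annotated copy ends (chrM:11003-11082) are printed 5′ to 3′ on the plus strand. Lower case marks the identical stretch and capitals mark bases outside it, 6 in mt-Nd3 and 3 in mt-Nd4l. Not all capitals differ from nuclear sequence. At the start of mt-Nd3 only base 3 is substituted, and its last 3 bases lie past the 345 annotated bases of Gm28438. The last 3 of mt-Nd4l lie past the 294 annotated bases of Gm10222, but they also belong to the start of mt-Nd4, which Gm28439 holds. The capitals of mt-Nd4 lie past the 876 annotated bases of Gm28439.
mt-Nd3 start: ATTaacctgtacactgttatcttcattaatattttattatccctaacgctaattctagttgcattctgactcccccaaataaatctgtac
mt-Nd3 end: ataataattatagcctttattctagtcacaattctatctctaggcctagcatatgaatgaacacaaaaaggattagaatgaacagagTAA
mt-Nd4l: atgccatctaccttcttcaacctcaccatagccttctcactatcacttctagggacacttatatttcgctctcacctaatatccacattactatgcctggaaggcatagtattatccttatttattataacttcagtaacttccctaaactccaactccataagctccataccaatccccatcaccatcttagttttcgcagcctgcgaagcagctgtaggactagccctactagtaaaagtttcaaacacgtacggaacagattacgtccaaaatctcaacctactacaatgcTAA
mt-Nd4: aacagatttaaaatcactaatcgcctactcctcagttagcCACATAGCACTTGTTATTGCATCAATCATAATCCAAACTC

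Counted as windows of 100 bases, 97.6% of mt-Nd3, 98.5% of mt-Nd4l and 60.8% of mt-Nd4 were also found in another annotated transcript on either strand. With windows of 150 bases these shares were 97.0%, 98.0% and 59.2%. Of mt-Nd2 3.19% of 100-base windows were found elsewhere, in the chromosome 2 pseudogene Gm13339, and 0% of those of mt-Nd1, mt-Nd5 and mt-Nd6. With windows of 50 bases the share was 8.19% for mt-Nd2 and 7.61% for mt-Nd5, the latter in the processed pseudogenes Gm11407 and Gm4076. It stayed 0% for mt-Nd1 and mt-Nd6. Neither the read length nor the handling of reads that match more than 1 place is given in the sources used here, and rows for these copies were not among the gene rows used. Levels of mt-Nd3, mt-Nd4l and mt-Nd4 are therefore given as counted, and the part that the copies play in them was not tested.

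Pairs of members also overlap each other. The last 7 bases of mt-Nd4l are the first 7 of mt-Nd4, both read from the same strand. The last 14 bases of mt-Nd5 (11742 to 13565, plus strand) lie under the end of mt-Nd6 (13552 to 14070, minus strand), and since sequencing did not keep the strand, reads from the RNA antisense to mt-Nd6 cannot be told apart from mt-Nd6 itself. Each overlap is shown in capitals with 20 bases on either side, in the sense of the plus strand, at bases 10147 to 10193 and 13532 to 13585.
mt-Nd4l and mt-Nd4: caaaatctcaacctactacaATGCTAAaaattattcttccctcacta
mt-Nd5 and mt-Nd6: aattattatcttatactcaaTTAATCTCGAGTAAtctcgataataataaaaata

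The base composition of mt-Nd6 set it apart from the other 6 members. Its coding strand held 28.1% G and 5.97% C, while the heavy-strand members held between 7.996% and 11.6% G and between 22.1% and 30.0% C.

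Levels are given as CPM, the reads of a gene scaled to a fixed total of reads counted in genes of that library. The sgNDUFS4 libraries held 23910781 to 25947374 such reads and the sgControl libraries 20090607 to 23652793. The targeted gene Ndufs4 (chromosome 13, 114287795 to 114388258, minus strand) was at 14.99, 15.98 and 16.84 CPM in sgNDUFS4, against 54.30, 55.05 and 52.39 CPM in sgControl. The 13 mitochondrial mRNAs took between 3.51% and 3.57% of reads in sgNDUFS4 and between 2.59% and 2.79% in sgControl, and the 7 complex I members took between 1.19% and 1.24% in sgNDUFS4 and between 0.923% and 1.01% in sgControl. The summed CPM of 67 Hist symbols, a family whose transcripts largely go without poly(A), lay between 46.6 and 49.6 in sgNDUFS4 and between 27.4 and 32.7 in sgControl, and what this has to do with the mitochondrial levels was not tested. All 7 melanocyte markers were detected, with a summed level of 14508 to 15533 CPM in sgNDUFS4 and 15409 to 15927 CPM in sgControl. Limma called 2 of them higher and 5 lower (median log2 difference -0.15), and Tyr ranged from 2.81 to 33.98 CPM over the 6 libraries. The part of these shifts in the mitochondrial levels was not tested. The markers of other cells were low, with 3 of 3 endothelial markers, the leukocyte marker Cd3e and the fibroblast markers Dcn and Lum at 0 in every library, and the 5 fibroblast markers summing to 41.4 to 46.1 CPM in sgNDUFS4 and 41.8 to 44.1 CPM in sgControl.

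In the comparison of sgNDUFS4 with sgControl the mitochondrial complex I mRNAs were higher, apart from mt-Nd3. Of the 7 members, 6 rose in sgNDUFS4, by 0.26 to 0.52 on the log2(CPM + 0.5) scale, and mt-Nd3 did not pass (limma, Benjamini-Hochberg adjusted over 11063 genes, threshold 0.05). Of all genes tested, 52% were called, 31.8% higher and 20.3% lower. The groups did not overlap for 6 of 7 members, nor for 57.2% of all genes, of which those with every sgNDUFS4 library above every sgControl library made up 35% of genes tested. On reads recovered from the CPM, edgeR and DESeq2 also called 6 members higher, against 24.6% and 23.5% of all genes. The median log2 fold change of the members was 0.35, against 0.06 over all genes tested, and under TMM scaling it was 0.29 against 0.00287. In bulk RNA, more mitochondrial RNA per cell and less of other RNA cannot be told apart.

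mt-Nd1 forms the part of the membrane arm where ubiquinone enters the enzyme. It was at 4396, 4568 and 4495 CPM in sgNDUFS4, against 3486, 3916 and 3869 CPM in sgControl. The groups did not overlap, and replicate 1 was the lowest library of each. The log2 fold change was 0.26 (SE 0.0307, limma adjusted p = 1.09e-07), the smallest of the 6 that rose.

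mt-Nd2, mt-Nd4 and mt-Nd5 are the antiporter-like subunits, through which protons are pumped. mt-Nd2 was at 2070.1, 2111 and 2007 CPM in sgNDUFS4, against 1552, 1693 and 1622 CPM in sgControl. mt-Nd5, at the far end of the membrane arm, was at 3041, 3135 and 3174 CPM in sgNDUFS4, against 2478, 2561 and 2607 CPM in sgControl. In both genes every sgNDUFS4 library lay above every sgControl library. The log2 fold changes were 0.35 for mt-Nd2 (SE 0.0286, limma adjusted p = 1.59e-10) and 0.29 for mt-Nd5 (SE 0.0248, limma adjusted p = 3e-10).

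mt-Nd4 had the larger difference among the antiporter-like subunits. It was at 1808, 1899 and 1759.7 CPM in sgNDUFS4, against 1235.5, 1359 and 1349 CPM in sgControl. The groups were well apart, with the lowest sgNDUFS4 library above the highest sgControl library. Its log2 fold change was 0.47 (SE 0.0322, limma adjusted p = 4.01e-12).

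mt-Nd4l and mt-Nd3 are small membrane subunits, and mt-Nd3 carries a loop that is known to move between the active and resting states of the enzyme. mt-Nd4l, which shares its transcript with mt-Nd4, was at 28.5, 32.3 and 30.2 CPM in sgNDUFS4, against 20.8, 21.2 and 21.0 CPM in sgControl. All 3 sgNDUFS4 libraries were higher, and the log2 fold change was 0.52 (SE 0.0816, limma adjusted p = 7.53e-06). mt-Nd3 was at 6.43, 6.61 and 5.59 CPM in sgNDUFS4, against 5.43, 6.47 and 5.79 CPM in sgControl. Here the groups overlapped, and the lowest library was one of sgControl and the highest one of sgNDUFS4. Its log2 fold change was 0.07 with a 95% interval from -0.25 to 0.39 (limma adjusted p = 0.731), an interval that holds the fold changes of mt-Nd1, mt-Nd2, mt-Nd5 and mt-Nd6.

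mt-Nd6, the small light-strand subunit, was at 598.0, 633.3 and 622.3 CPM in sgNDUFS4, against 451.5, 498.9 and 507.5 CPM in sgControl. The groups did not overlap, and the log2 fold change was 0.35 (SE 0.0364, limma adjusted p = 1.25e-08). Set against the geometric mean of the 6 heavy-strand members in each library, mt-Nd6 differed between the groups by 0.02 on the log2 scale, with a 95% interval from -0.09 to 0.13 (limma adjusted p = 0.787), in a scaling where 61.4% of all genes tested were called. Its difference was thus not separable from that of the heavy-strand members at this precision. Because sequencing did not keep the strand, the mt-Nd6 count can include RNA antisense to it. The comparison therefore cannot tell light-strand from heavy-strand RNA.

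**Figure D1:**
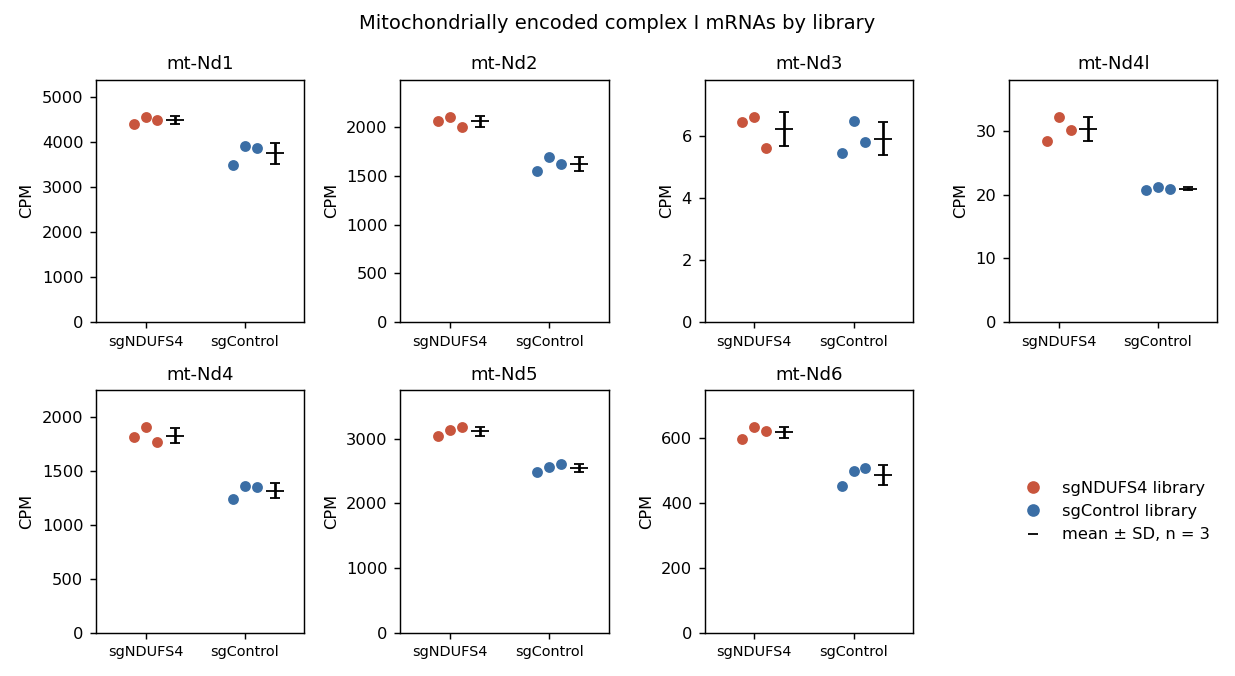
CPM of each member, one panel per gene in genome order, with a linear axis from 0. Points are libraries, and the bar beside them is the mean ± SD (n = 3). The points of sgNDUFS4 lie above those of sgControl for every gene but mt-Nd3, where they overlap between 5.59 and 6.47 CPM.

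The spread between replicates was small beside these differences for most members. The coefficient of variation over replicates was between 1.93% and 6.24% in sgNDUFS4 and between 0.899% and 6.27% in sgControl for the 6 members other than mt-Nd3. mt-Nd3 rested on 145 to 166 reads in sgNDUFS4 and 109 to 153 reads in sgControl, and its coefficient of variation was 8.77% in sgNDUFS4 and 8.98% in sgControl, close to the 7.998% and 8.759% that counting error alone gives in these groups. mt-Nd4l rested on 736 to 784 reads in sgNDUFS4 and 418 to 501 in sgControl, and the other 5 members on at least 15143 reads in every sgNDUFS4 library and 9070 in every sgControl library. The 0.899% in sgControl was that of mt-Nd4l, below the 4.652% that counting error alone gives for it, so it does not show a low true spread.

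Per length, the members spanned a wide range of levels. As CPM per kb of annotated length, mt-Nd1 was at 4688 ± 90.3 in sgNDUFS4 and 3926 ± 246.2 in sgControl (SD, n = 3 each), followed by mt-Nd2 at 1987 ± 50.6 in sgNDUFS4 and 1563 ± 67.7 in sgControl. mt-Nd5 came next at 1709 ± 37.4 in sgNDUFS4 and 1397 ± 35.8 in sgControl. It was followed by mt-Nd4 at 1322 ± 51.4 in sgNDUFS4 and 954.0 ± 49.8 in sgControl and mt-Nd6 at 1190.5 ± 34.8 in sgNDUFS4 and 936.3 ± 58.2 in sgControl. In sgControl the libraries of mt-Nd4 and mt-Nd6 overlapped, at 896.6 to 986.5 and 869.9 to 977.9 CPM per kb, so their order there was within the spread. mt-Nd4l followed at 102.1 ± 6.37 CPM per kb in sgNDUFS4 and 70.7 ± 0.635 in sgControl, and mt-Nd3 came last at 17.8 ± 1.56 in sgNDUFS4 and 16.9 ± 1.52 in sgControl.

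The members at the low end of this order, mt-Nd3 and mt-Nd4l, have sequence printed above that is almost wholly contained in a nuclear copy. They are also the shortest members, at 348 and 297 bases, and the part of either trait in their level was not tested. mt-Nd4l and mt-Nd4 are parts of a single transcript. In sgNDUFS4 mt-Nd4l was at 102.1 CPM per kb and mt-Nd4 at 1322 CPM per kb, and in sgControl they were at 70.7 and 954.0 CPM per kb. Divided by windows of 100 bases that no other annotated transcript holds, in place of length, mt-Nd4 was at 3630.0 CPM per 1000 windows in sgNDUFS4 and 2619 in sgControl, and mt-Nd1 was at 5229 in sgNDUFS4 and 4379 in sgControl. On that scale mt-Nd4 stood above mt-Nd2 (2269 in sgNDUFS4 and 1785 in sgControl), mt-Nd5 (1807 in sgNDUFS4 and 1477 in sgControl) and mt-Nd6 (1471 in sgNDUFS4 and 1157 in sgControl). The scale assumes that reads from shared windows were not counted, which is unknown here, so the place of mt-Nd4 on it rests on that assumption. mt-Atp8 had 0% of its 100-base windows in another annotated transcript. It was at 494.4 ± 274.3 CPM per kb in sgNDUFS4 and 241.8 ± 38.7 in sgControl (SD, n = 3 each). The sgNDUFS4 libraries of mt-Atp8 ran from 326.0 to 810.9 CPM per kb. Its bases 7927 to 7969 also belong to mt-Atp6, which the chromosome 1 pseudogene Gm10925 holds from base 1 of mt-Atp6. The search did not cover the genome, so whether the rest of mt-Atp8 has a nuclear copy was not tested. Only 3 windows of 100 bases that no other annotated transcript holds remain in mt-Nd4l and 6 in mt-Nd3, too few for a level per 1000 windows.

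**Figure D2:**
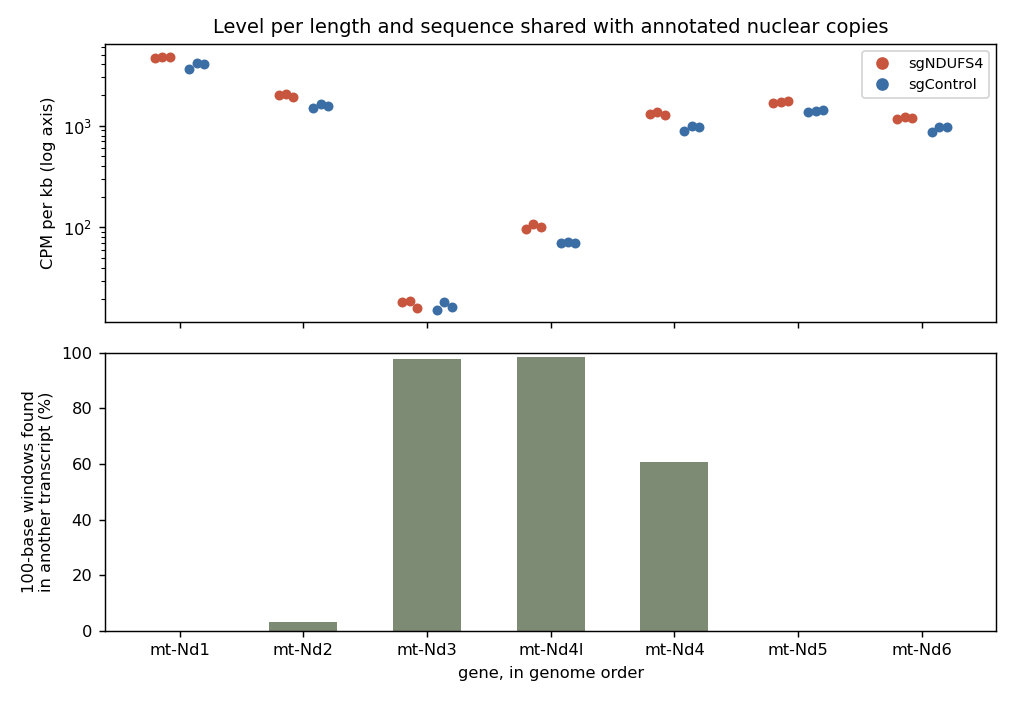
Upper panel, CPM per kb of each member on a log axis, with a point per library and sgNDUFS4 left of sgControl. Lower panel, the percent of each gene's 100-base windows found in another annotated transcript, which is 97.6% for mt-Nd3, 98.5% for mt-Nd4l and 60.8% for mt-Nd4, the lowest, next lowest and a middle gene of the upper panel.

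Summed over the 7 members, complex I mRNA was at 11948, 12385 and 12093 CPM in sgNDUFS4, against 9229, 10055 and 9981 CPM in sgControl. The ratio of the means was 1.24, and every sgNDUFS4 library was higher (exact permutation p = 0.1, two-sided, the smallest that 3 against 3 libraries allow). Without mt-Nd3, mt-Nd4l and mt-Nd4 the ratio was 1.22 (exact permutation p = 0.1). mt-Nd1 made up 36.9 ± 0.198% of the sum in sgNDUFS4 and 38.5 ± 0.630% in sgControl, and mt-Nd4 15.0 ± 0.407% in sgNDUFS4 and 13.5 ± 0.0752% in sgControl (SD, n = 3 each). The libraries of the 2 groups did not overlap in either share (exact permutation p = 0.1 each, and the same p for mt-Nd3 and mt-Nd4l among 7 shares tested, so that none can pass 0.05 at this size).

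The other 6 mitochondrial mRNAs, which code for subunits of complexes III, IV and V, all rose, with a median log2 fold change of 0.64. Limma called 31.8% of all genes tested higher. mt-Cytb, with 0% of its 100-base windows in another annotated transcript, rose by 0.33, and mt-Atp8, also with 0%, by 0.90. mt-Co1, with 30.8%, rose by 0.47. mt-Co2, mt-Co3 and mt-Atp6, with 99.49%, 99.85% and 99.48%, rose by 0.65, 0.63 and 0.69. The part of this shared sequence in the fold changes was not tested. As a share of the 13 mitochondrial mRNAs, the complex I members took 34.0%, 34.8% and 33.9% in sgNDUFS4, against 35.7%, 36.5% and 35.8% in sgControl. The share was lower in all 3 sgNDUFS4 libraries, by 1.77 percentage points on average (exact permutation p = 0.1). Without mt-Co1, the most abundant of the 13, the share differed by -0.592 percentage points (exact permutation p = 0.2). Among genes with little sequence in annotated nuclear copies, a set that also lacks mt-Co1, mt-Nd1, mt-Nd2, mt-Nd5 and mt-Nd6 were at 57.3 ± 0.530% of themselves plus mt-Cytb in sgNDUFS4 and 58.0 ± 0.193% in sgControl (SD, n = 3 each). The difference was -0.634 percentage points, and the groups did not overlap (exact permutation p = 0.1). This share has another denominator, so its difference cannot be compared in size with that over the 13 mRNAs.

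**Figure D3:**
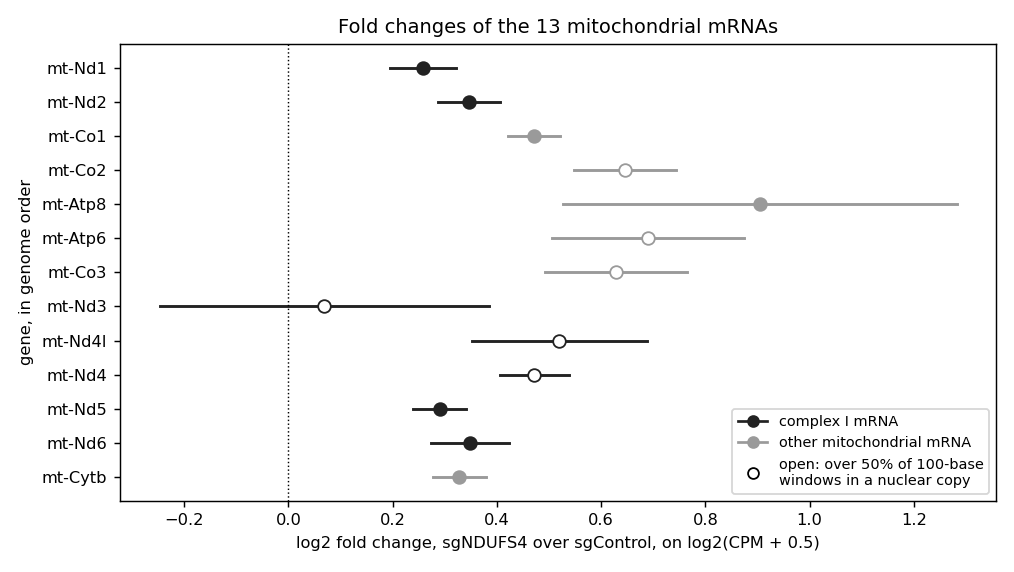
Log2 fold change of sgNDUFS4 over sgControl for the 13 mitochondrial mRNAs in genome order, with 95% intervals from limma. Dark points are the complex I mRNAs, grey points the others, and open points have over 50% of their 100-base windows in a nuclear copy. The complex I genes with filled points lie between 0.26 and 0.35, mt-Nd4 and mt-Nd4l at 0.47 and 0.52, and mt-Nd3 at 0.07.

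Whether single members moved less than the other mitochondrial mRNAs depended on which of those they were set against. With each library scaled to the geometric mean of the other 6, mt-Nd1 differed by -0.36 (limma adjusted p = 0.0181), mt-Nd3 by -0.50 (limma adjusted p = 0.0253) and mt-Nd5 by -0.32 (limma adjusted p = 0.0319), and the other 4 members did not pass. In that scaling 71.2% of all genes tested were called lower and 1.68% higher. Without sgNDUFS4 replicate 1 no member passed (limma adjusted p = 0.0808, 0.0539 and 0.132 for mt-Nd1, mt-Nd3 and mt-Nd5). Without sgControl replicate 1 or sgControl replicate 2 the count was also 0, and without sgNDUFS4 replicate 3 it was 1. mt-Atp8, one of the 6, was at 165.4 CPM in sgNDUFS4 replicate 1 and at 66.5 and 70.6 CPM in sgNDUFS4 replicates 2 and 3. With mt-Atp8 and mt-Atp6 left out of the scaling set, 5 members were called lower, all but mt-Nd4 and mt-Nd4l (limma adjusted p from 0.000961 to 0.023). The error of the scaling gene set is shared by all genes, so that these adjusted p-values are too small. Scaled to mt-Co1 and mt-Cytb, mt-Nd1 and mt-Nd5 were lower, by -0.14 and -0.11 (limma adjusted p = 0.00359 and 0.0193), as were 64.8% of all genes tested. Scaled to mt-Cytb alone, which has no 100-base window in another transcript, mt-Nd1 differed by -0.07 (limma adjusted p = 0.137), mt-Nd5 by -0.04 (limma adjusted p = 0.446) and mt-Nd3 by -0.23 (limma adjusted p = 0.202), while mt-Nd4 was higher by 0.14 (limma adjusted p = 0.00305, with 7% of all genes tested called higher).

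**Figure D4:**
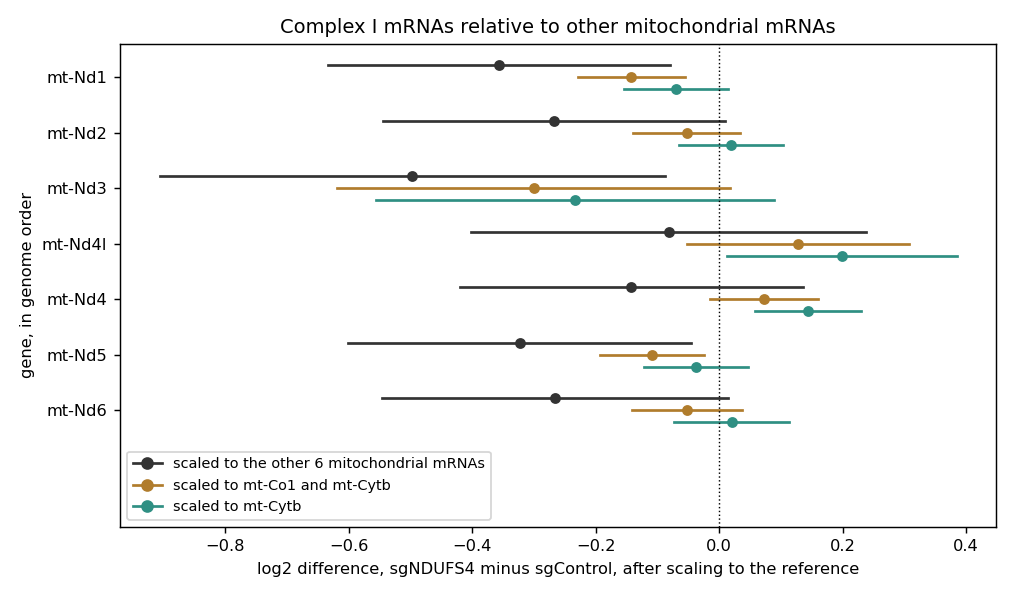
Log2 difference of each member, sgNDUFS4 minus sgControl, after every library is scaled to the geometric mean of the mitochondrial mRNAs named in the legend, with 95% intervals. The values scaled to mt-Cytb lie nearer 0 than those scaled to the other 6 mRNAs for mt-Nd1, mt-Nd2, mt-Nd3, mt-Nd5 and mt-Nd6. The sign changes for mt-Nd4, at -0.14 and 0.14, for mt-Nd4l, at -0.08 and 0.20, and for mt-Nd2 and mt-Nd6, both at -0.27 and 0.02.

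Among the members themselves, mt-Nd4 rose more than mt-Nd1, mt-Nd2 and mt-Nd5. Its log2 ratio to their geometric mean was -0.74, -0.71 and -0.80 in sgNDUFS4, against -0.94, -0.92 and -0.91 in sgControl. The groups did not overlap, and after scaling to these 3 members mt-Nd4 differed by 0.17 (SE 0.0484, limma adjusted p = 0.00135, and 0.03 or less with any library left out), where 7.97% of all genes tested were called higher. mt-Nd4l differed by 0.23 in the same scaling (limma adjusted p = 0.032), and that call was lost without sgNDUFS4 replicate 2, sgNDUFS4 replicate 3, sgControl replicate 2 or sgControl replicate 3 (limma adjusted p = 0.139, 0.073, 0.0678 and 0.0735). In this scaling mt-Co1 was also called higher, by 0.17, as were mt-Co2, mt-Co3, mt-Atp6 and mt-Atp8, by 0.33 to 0.61. mt-Cytb, mt-Nd6 and mt-Nd3 were not called, at 0.03, 0.05 and -0.21. Here too the error of the scaling genes is shared by all genes, so that the adjusted p-values in this scaling are too small. The log2 ratio of mt-Nd4 taken per library gave an exact permutation p of 0.1, the smallest possible. This scaling was chosen after the overlap with nuclear copies had been seen, mt-Nd4 and mt-Nd4l being 2 of the 3 members that overlap them over most of their windows. The part of that overlap in the difference was not tested.

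The nuclear genes of complex I moved in mixed directions. Of 37 listed subunits other than Ndufs4, 35 were tested. Their median log2 fold change was 0.15, against 0.06 over all genes tested. Limma called 19 higher and 4 lower, where 31.8% of all genes were called higher and 20.3% lower. Ndufb5, a membrane arm subunit, was at 131.7, 130.4 and 131.9 CPM in sgNDUFS4, against 86.7, 92.8 and 95.1 CPM in sgControl, and Ndufs6, of the matrix arm, was at 57.1, 57.0 and 59.7 CPM in sgNDUFS4, against 36.2, 37.2 and 34.2 CPM in sgControl (log2 0.52 and 0.68, limma adjusted p = 5.53e-10 and 1.11e-09). The 4 that fell were Ndufa1 (-0.61), Ndufb11 (-0.55), Ndufs7 (-0.27) and Ndufa10 (-0.12), named after their values were seen. Among assembly factors the median was 0.13, and 4 of 18 tested were higher and 2 lower, against the same shares over all genes. Aifm1, a mitochondrial flavoprotein, fell by 0.92 on the log2 scale and Acad9, an assembly factor related to acyl-CoA dehydrogenases, rose by 0.31 (limma adjusted p = 2.52e-14 and 2.61e-05).

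Factors of mitochondrial RNA were compared in 3 lists, to be read against the 31.8% of all genes called higher and the 20.3% called lower. Among 10 tested factors of mitochondrial transcription the median log2 fold change was 0.27, and limma called 6 higher and 0 lower. At an unadjusted p below 0.05 the count lower was also 0 by limma, as was the adjusted count by edgeR and by DESeq2. Polrmt, the mitochondrial RNA polymerase, was at 92.2, 90.8 and 89.7 CPM in sgNDUFS4, against 74.4, 83.7 and 77.6 CPM in sgControl, and Mterf3, which represses transcription of mitochondrial DNA in mice, was at 22.7, 21.0 and 21.6 CPM in sgNDUFS4, against 15.5, 14.8 and 13.5 CPM in sgControl. The groups did not overlap in either gene (log2 0.21 and 0.56, limma adjusted p = 0.00124 and 2.44e-05). Tfam, which packages mitochondrial DNA and starts its transcription, did not pass, at -0.01 (limma adjusted p = 0.953).

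Among 14 tested factors of RNA stability and turnover the median was 0.14, and limma called 7 higher and 0 lower. At an unadjusted p below 0.05, 1 was lower by limma, and edgeR and DESeq2 called 2 lower each. Lrpprc and Slirp form a complex that binds and protects mitochondrial mRNAs. Lrpprc was at 198.7, 187.1 and 187.6 CPM in sgNDUFS4, against 152.5, 159.1 and 157.1 CPM in sgControl, and Slirp was at 63.5, 61.9 and 64.1 CPM in sgNDUFS4, against 43.1, 50.6 and 46.1 CPM in sgControl. Both rose, by 0.29 and 0.44 on the log2 scale (limma adjusted p = 9.48e-07 and 1.73e-06).

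Among 13 tested factors of RNA processing and modification the median was 0.14, and limma called 4 higher and 3 lower, which is near the shares over all genes. edgeR and DESeq2 each called 1 higher and 3 lower. Grsf1, an RNA-binding protein of mitochondrial RNA granules that in human cells binds ND6 RNA, was at 43.7, 47.2 and 46.0 CPM in sgNDUFS4, against 51.3, 56.9 and 52.4 CPM in sgControl, and it fell by 0.23 on the log2 scale (limma adjusted p = 0.00345). Pus1, a pseudouridine synthase, fell by 0.25 (limma adjusted p = 0.000402).

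TMM scaling moved the split of these lists. The counts higher and lower became 16 and 6 for nuclear subunits, 3 and 4 for assembly factors, 5 and 0 for transcription, 6 and 2 for stability and turnover, and 1 and 3 for processing, while over all genes 24.8% were then called higher and 25.9% lower. The 6 members that rose did so under each of the 4 scalings tried.

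Over the 6 libraries, mt-Nd6 and mt-Nd4 followed the summed level of the members most closely, with Pearson's r of 0.995 for each on the log2 scale, and mt-Nd3 least, with r = 0.476. Each member is itself part of that sum, and mt-Cytb, which is not, had r = 0.994. mt-Nd3 had the fewest reads of the members. Outside the mitochondrial genome the genes most like the sum were Mettl23, Glrb, Chsy3, Pigw and Dopey1, with r between 0.997 and 0.999 over 6 libraries. These values describe 6 points that fall into 2 groups, so that a high r mostly reflects the difference between the groups.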

How the data were processed

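The authors' deposited table holds CPM values per gene, scaled to the size of each library. Per the submitters' processing notes, HISAT2 is among the tools and GRCm38 is the build; no source used here gives the counter, the annotation or the handling of reads that match several places. Within a tolerance of 0.01, 99.98% to 100% of CPM values corresponded to whole reads, and the recovered reads entered edgeR, which called 2723 genes higher, and DESeq2, which called 2603 higher.

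Values were tested as log2(CPM + 0.5), a scale that understates the change of low genes. The test was limma with a trend of variance on level, two-sided, on the 11063 genes averaging 1 CPM or more, with p-values adjusted by Benjamini-Hochberg at a threshold of 0.05. It was repeated after scaling each library to sets of mitochondrial mRNAs, and it was tested on simulated data. Windows of each mitochondrial mRNA were searched in all GENCODE M21 transcripts on both strands, not in the genome. Members, lists and tests were chosen with earlier results of these data known. Named genes are the members, the other mitochondrial mRNAs, Ndufs4, up to 2 called genes with the smallest p and 1 that did not pass of each list, and the 5 genes most like the summed members. Tfam, Tyr and the 4 nuclear subunits that fell are named besides, chosen after their values were seen. The genes that did not pass (Ndufc2, Ndufaf5, Mterf4, Ptcd2 and Tbrg4) had log2 fold changes from -0.09 to 0.17. The leukocyte and keratinocyte markers summed to at most 3.10 and 0.271 CPM in sgNDUFS4, and to at most 1.89 and 0.180 CPM in sgControl. Mitochondrial rRNA and 6 listed nuclear copies were not analysed here. Other settings varied the pseudocount, the filter on low values, the scaling, the variance model, the tool, a block for replicate numbers and the libraries included. The software was limma 3.58.1 under R 4.3.3, with DESeq2 1.42.0 and edgeR 4.0.16.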

Additional observations from a re-analysis of the deposited data

How the results depend on the processing

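The count of 6 members higher and 0 lower held in all 19 alternatives, which included edgeR and DESeq2, and the log2 fold change of mt-Nd3 ranged from -0.04 to 0.14 without passing. With a library left out the summed members differed by 2124 to 2537 CPM and their share by -2.05 to -1.52 percentage points, and mt-Nd6 relative to the heavy-strand members by -0.00366 to 0.04. The replicate numbers gave no pairing: deviations of same-numbered libraries correlated at 0.0559, 0.0121 and 0.0972, and sgNDUFS4 replicate 2 correlated better with sgControl replicate 1. With the replicate block the members were called as without it, and 0 members were lower than the other 6 mitochondrial mRNAs, in place of 3. That count of 3 was the least stable. It was 1 with no filter or no mean-variance trend, 5 with mt-Atp8 and mt-Atp6 left out of the scaling set, 0 (with 1 higher) scaled to mt-Cytb, where mt-Nd4 changed sign to 0.14, and 0 to 4 with a library left out: 0 without sgNDUFS4 replicate 1, sgControl replicate 1 or sgControl replicate 2 and 1 without sgNDUFS4 replicate 3. The cause was not tested. Scaling to mt-Cytb, to mt-Co1 and mt-Cytb, without mt-Atp8 and mt-Atp6, or to mt-Nd1, mt-Nd2 and mt-Nd5 was chosen after seeing the data. So were sums or shares without the members that overlap nuclear copies over most of their windows. Scaled to mt-Co1 and mt-Cytb, mt-Nd1 and mt-Nd5 were lower (64.8% of all genes tested were), by -0.14 and -0.11. Over the pathway lists 9 genes were lower, against 15 with TMM, median-of-ratios scaling or edgeR and 14 with DESeq2, and 33 to 39 were higher and 8 to 10 lower with a library left out. Among the members mt-Nd3 had the fewest reads, and its interval ran from -0.25 to 0.39; its SE was 0.154, against 0.0873 with no mean-variance trend. Without mt-Co1 the members' share differed by -0.592 percentage points.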
